A study of Mus musculus with 27 samples.

Results

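The genes described here were 30 members of the cholesterol synthesis pathway and of the SREBP system that controls it, measured in mouse hair follicle stem cells (HFSCs), the cells that renew the hair follicle. Members were chosen by gene symbol from known function, with no measured value in the rule, though with earlier results of these data known. They fell into 4 roles: 7 enzymes of the early mevalonate pathway, 11 enzymes that build squalene and convert it to sterol, 6 SREBP regulators and sterol transfer proteins, and 6 enzymes of fatty acid synthesis. All 30 were among the 51906 gene symbols of the bulk RNA-seq table and all 30 passed the filter on low counts that left 15965 genes for testing. All 30 were also listed among the 32285 genes of every single-cell matrix.

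Cells make cholesterol from acetyl-CoA through mevalonate, isoprenoid units, squalene and lanosterol. The pathway is set largely by transcription: SREBP-2, encoded by Srebf2, and SREBP-1, encoded by Srebf1, are made as precursors held in the endoplasmic reticulum by Scap and the Insig proteins while sterol is plentiful, and when sterol runs short Scap escorts them to the Golgi, where they are cut and released to the nucleus. There they bind sterol regulatory elements, usually beside CCAAT boxes bound by NF-Y and GC boxes bound by Sp1. SREBP-2 acts mainly on sterol enzymes and SREBP-1 mainly on fatty acid enzymes, and Srebf1 itself is a known target of the oxysterol receptors LXR, which pair with RXR proteins such as Rxra on DNA. In skin, sterols and fatty acids supply the epidermal barrier and sebum as well as membranes of dividing cells.

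Bulk RNA-seq covered 8 HFSC cultures, 2 in each combination of 2 genotypes and 2 media, from telogen skin at postnatal day 55, with 1 mouse behind each pair of same-numbered cultures of a genotype. By the study's methods, HFSCs were plated as lines on inactivated feeder cells, grown in droplets of basement membrane extract in a medium with serum (FBS), and for the atRA+PKCi groups moved to a serum-free medium with B-27 supplement, cholesterol carried by cyclodextrin, calcium, a ROCK inhibitor, all-trans retinoic acid (atRA) and an inhibitor of protein kinase C (PKCi). The 4 groups were therefore wild-type FBS, wild-type atRA+PKCi, Rxra cKO FBS and Rxra cKO atRA+PKCi. A difference between media covers loss of serum, the B-27 supplement, added cholesterol, atRA and PKCi together, and these cannot be told apart. By the study's methods the first serum medium also held EGF or FGF10, which falls under the same limit. The Rxra cKO mice carried Sox9-CreER, floxed Rxra and a YFP reporter, with the Cre active after tamoxifen in cells that express Sox9, whereas the strain and Cre status of the wild-type mice are not given in the sources used here, so genotype, line and strain cannot be told apart either. Each genotype was represented by 2 mice.

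Library totals ran from 25150300 to 35879800 estimated counts. Levels are given as counts scaled to a library of 1000000 (CPM) after normalization by the trimmed mean of M values, and differences as log2 ratios with standard errors and Benjamini-Hochberg adjusted p-values from edgeR's quasi-likelihood test over all 15965 genes, with a gene called at an adjusted p under 0.05. In bulk RNA, fewer cells of a type and less RNA per cell cannot be told apart. Rxra stood at 149 and 122 CPM in FBS and 147 and 143 CPM in atRA+PKCi for wild-type, and 97.2 and 95.7 CPM in FBS and 148 and 145 CPM in atRA+PKCi for Rxra cKO. It was lower in Rxra cKO than in wild-type cultures in FBS, at -0.49 (SE 0.09, adjusted p = 0.00264), and stood at 0.01 (SE 0.09, adjusted p = 0.927) in atRA+PKCi. These gene-level counts do not separate the floxed exons from the rest of the transcript, so they check nothing about the deletion and the genotype is used as labelled.

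Upstream sequence was read for the members from RefSeq promoters of build GRCm38.p6, which matched 24 of the 30 genes with 32 start sites. The sequences given are the 250 bases before the start of 4 genes, 5′ to 3′ on the gene's own strand: Hmgcs1, because its promoter alone held the sterol element searched, Hsd17b7 and Ebp, sterol enzymes among those that fell furthest in wild-type cultures, and Fasn, a fatty acid enzyme that was not called in any contrast. Capitals mark the sterol element TCACNCCAC and the CCAAT box, which reads ATTGG on the opposite strand. Hmgcs1 lies on the plus strand at chr13:119690101-119690350, Hsd17b7 on the minus strand at chr1:169969206-169969455, Ebp on the minus strand at chrX:8193513-8193762 and Fasn on the minus strand at chr11:120824548-120824797, each window ending at the base before the annotated start.
Hmgcs1: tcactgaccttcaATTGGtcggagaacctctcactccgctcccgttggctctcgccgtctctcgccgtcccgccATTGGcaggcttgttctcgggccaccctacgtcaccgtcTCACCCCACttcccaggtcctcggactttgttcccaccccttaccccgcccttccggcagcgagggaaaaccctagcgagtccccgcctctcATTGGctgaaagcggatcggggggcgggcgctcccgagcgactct
Hsd17b7: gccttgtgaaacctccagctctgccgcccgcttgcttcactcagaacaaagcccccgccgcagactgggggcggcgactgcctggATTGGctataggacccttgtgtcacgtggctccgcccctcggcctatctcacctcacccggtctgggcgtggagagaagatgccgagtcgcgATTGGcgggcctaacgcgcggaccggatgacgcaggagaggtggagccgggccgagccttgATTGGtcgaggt
Ebp: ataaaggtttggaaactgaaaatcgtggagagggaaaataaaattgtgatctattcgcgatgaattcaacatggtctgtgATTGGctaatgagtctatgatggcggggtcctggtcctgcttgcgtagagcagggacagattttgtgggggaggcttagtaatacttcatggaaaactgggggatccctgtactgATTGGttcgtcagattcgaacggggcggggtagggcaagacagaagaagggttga
Fasn: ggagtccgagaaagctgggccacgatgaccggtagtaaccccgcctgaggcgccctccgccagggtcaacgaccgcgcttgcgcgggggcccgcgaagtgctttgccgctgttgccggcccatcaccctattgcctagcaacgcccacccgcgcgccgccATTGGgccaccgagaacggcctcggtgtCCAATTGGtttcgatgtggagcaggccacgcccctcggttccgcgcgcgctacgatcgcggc

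Over the full windows of 250 bases before and 50 after the start, on both strands, the letters TCACNCCAC were found in 1.24% of 32851 promoters and in 1 member, Hmgcs1, where they lay 137 bases before the start as TCACCCCAC. CCAAT was found in 37.4% of all promoters and in 21 of the 32 member promoters (65.6%), which belonged to 20 of the 24 matched genes. The GC box GGGCGG was found in 35.7% of all promoters and in 24 of the 32 member promoters (75.0%), also in 20 genes. Of the 20 members with a CCAAT box, 16 fell on the change of medium in wild-type cultures, and of the 4 without one, 1 fell, where 26.6% of all genes tested fell. The counts were the same for the GC box, 16 of 20 with it and 1 of 4 without it. In Rxra cKO cultures, where 22.2% of all genes fell, 10 of 20 with and 1 of 4 without a CCAAT box fell, against 9 of 20 with and 2 of 4 without a GC box. With 4 genes on one side, these splits are a description only. The missing promoters were those of Fdps, Fdft1, Sqle, Stard4, Scd1 and Scd2. A match to these letters is not a measured binding site. Only these exact letters were searched, so a promoter without a match may hold a variant element that was missed.

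The members spanned a wide range of levels, and most were highest in wild-type cultures with serum. Per kilobase of exon in wild-type FBS, Scd2, a stearoyl-CoA desaturase, was highest at 144 and 117 CPM per kb, followed by Idi1, which isomerises the isoprenoid unit, at 104 and 116 and the lanosterol demethylase Cyp51 at 93.0 and 95.2. Fdps came next at 93.0 and 92.6, within the spread of Cyp51. Nsdhl, Acly, Acat2, Hmgcs1, Msmo1 and Sqle followed between 63.6 and 82.9 CPM per kb, with overlapping libraries. Tm7sf2, a sterol reductase whose step another enzyme can also carry out, was lowest at 1.13 and 1.18 CPM per kb, with the acetyl-CoA carboxylase Acaca next at 5.37 and 4.22. Srebf2 stood at 30.1 and 24.1 CPM per kb and Srebf1 at 8.54 and 7.24. These levels were divided by all annotated exon bases of a gene, such as 4208 for Fdps and 10787 for Lss. A single transcript can be shorter, so the ranks depend on the annotation. Of the 30 members, 23 had their highest group mean in wild-type FBS, where 27% of all genes tested did, 21 of them with both libraries above the other 6, as in 16.8% of all genes. The lowest mean was in Rxra cKO atRA+PKCi for 16 members, where it was for 22% of all genes, 13 of them with both libraries below the other 6, as in 12.6% of all genes.

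**Figure D1:**
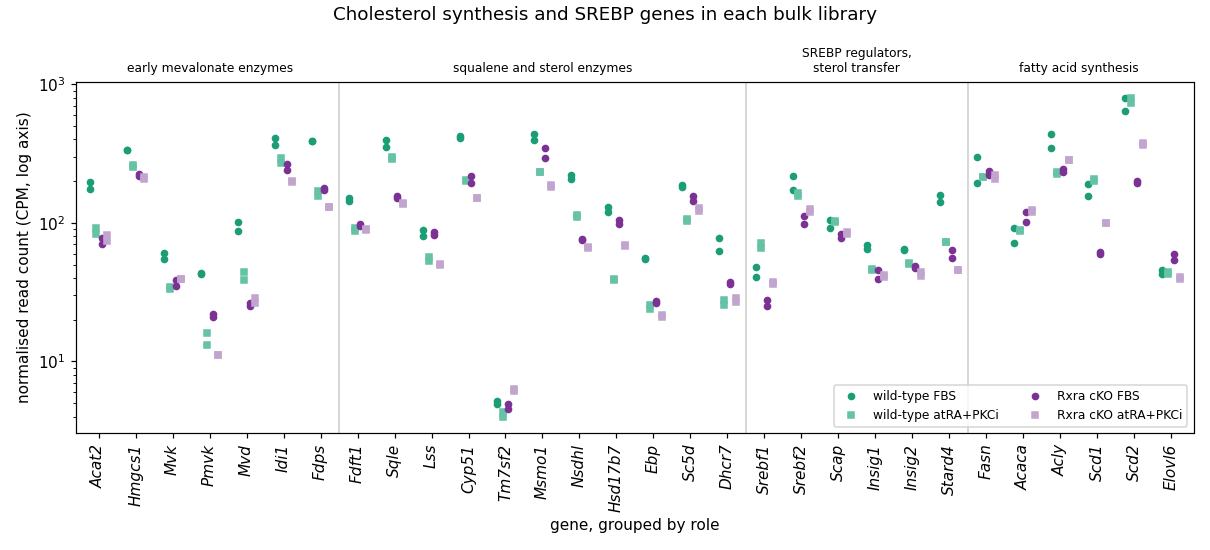
CPM of the 30 members in each of the 8 bulk libraries, on a log axis, with genes grouped by role and symbols for the 4 groups of 2 cultures. The points of most sterol enzymes sit highest in wild-type FBS, while Tm7sf2 lies lowest of all near 5 CPM and the highest single point is Scd2 at 799 CPM in wild-type atRA+PKCi.

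The comparison of media asked how these genes differ between HFSCs held in serum and HFSCs in the medium with atRA and PKCi. In wild-type cultures the sterol pathway fell almost as a whole: 21 of 30 members were lower in atRA+PKCi, where 26.6% of all genes tested were, and 1, Srebf1, was higher, where 27.2% of all genes were. The median log2 change of the members was -0.66, against 0.03 over all genes. The falls covered all 7 early mevalonate enzymes, 10 of 11 squalene and sterol enzymes, 3 of 6 regulators (Insig1, Insig2 and Stard4) and 1 of 6 fatty acid enzymes (Acly). In Rxra cKO cultures 13 of 30 members were lower, where 22.2% of all genes were, and 3 were higher (Srebf1, Scd1 and Scd2), where 20.8% were, and the median was -0.13 against 0.02 over all genes. There the falls covered 3 of 7 early mevalonate enzymes, 8 of 11 squalene and sterol enzymes, 1 regulator (Stard4) and 1 fatty acid enzyme (Elovl6). Both comparisons are of the cultures in FBS with those in atRA+PKCi of the same genotype and share no library.

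The difference between the 2 medium effects was tested as an interaction, the change in wild-type minus the change in Rxra cKO. It was below 0 and called for 19 of 30 members, where 13.3% of all genes were, and above 0 and called for 1, Elovl6, where 11.3% were. The median over members was -0.57, against 0.01 over all genes. The 19 were 6 of 7 early mevalonate enzymes, 8 of 11 squalene and sterol enzymes, Insig1 and Stard4 among the regulators, and Acly, Scd1 and Scd2 among the fatty acid enzymes. In 12 members, where 15.6% of all genes were, the fall was called in both genotypes (Pmvk, Idi1, Fdps, Lss, Cyp51, Msmo1, Nsdhl, Hsd17b7, Ebp, Sc5d, Dhcr7 and Stard4), and in 9, where 11% of all genes were, it was called in wild-type cultures but not in Rxra cKO cultures (Acat2, Hmgcs1, Mvk, Mvd, Fdft1, Sqle, Insig1, Insig2 and Acly). Of these 9, the interaction was called for 7 and not for Sqle, at -0.19 (SE 0.10, adjusted p = 0.23), or Insig2, at -0.17 (SE 0.09, adjusted p = 0.23). Among the 12, Idi1, Lss and Msmo1 had interactions of -0.11, 0.14 and -0.04 with adjusted p-values of 0.544, 0.376 and 0.877.

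**Figure D2:**
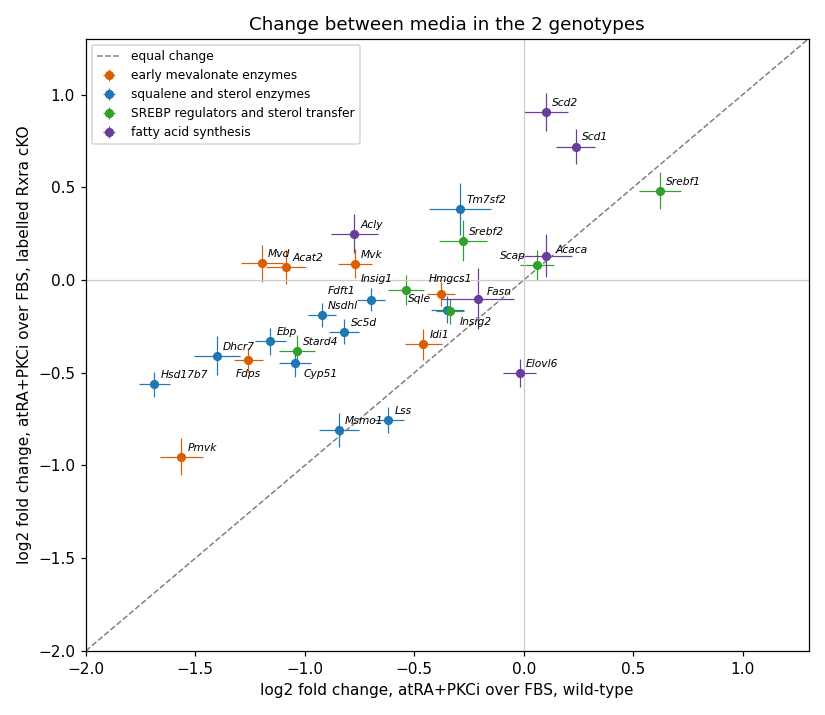
Log2 change from FBS to atRA+PKCi medium of each member in wild-type cultures (x axis) against that in Rxra cKO cultures (y axis), with standard errors as bars, colors by role and a dashed line of equal change. Most points lie left of 0 and above the line, from Hsd17b7 at -1.69 for wild-type and -0.56 for Rxra cKO to Mvd at -1.20 and 0.09, while Lss and Msmo1 lie near the line.

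The early mevalonate enzymes carry acetyl-CoA to farnesyl diphosphate, the branch point to sterols and to other isoprenoids. In wild-type cultures all 7 fell, by log2 changes between -1.56 and -0.38. Pmvk, phosphomevalonate kinase, stood at 43.1 and 43.2 CPM in FBS and 16.0 and 13.2 CPM in atRA+PKCi for wild-type, and 20.9 and 22.2 CPM in FBS and 11.1 and 11.1 CPM in atRA+PKCi for Rxra cKO. Its wild-type FBS libraries were the highest, the Rxra cKO FBS libraries came next, and no 2 groups overlapped. Its log2 changes of medium were -1.56 (SE 0.10, adjusted p = 2.27e-06) in wild-type and -0.95 (SE 0.10, adjusted p = 0.000104) in Rxra cKO, with an interaction of -0.61 (SE 0.14, adjusted p = 0.0135). Fdps, farnesyl diphosphate synthase, was measured at 391 and 389.7 CPM in FBS and 169 and 157 CPM in atRA+PKCi for wild-type, and 173 and 178 CPM in FBS and 129.9 and 131 CPM in atRA+PKCi for Rxra cKO. It was high only in wild-type FBS, and wild-type atRA+PKCi came close to Rxra cKO FBS without overlapping it. The changes of medium were -1.26 (SE 0.07, adjusted p = 7.89e-07) in wild-type and -0.43 (SE 0.07, adjusted p = 0.000879) in Rxra cKO, and the interaction was -0.83 (SE 0.09, adjusted p = 0.00038).

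A different pattern was seen for Mvd, Acat2 and Mvk, which fell in wild-type cultures but had no called change of medium in Rxra cKO cultures. Like Pmvk and Fdps, they were lower in Rxra cKO than in wild-type cultures in serum. Mvd, mevalonate diphosphate decarboxylase, stood at 102 and 87.5 CPM in FBS and 44.0 and 38.6 CPM in atRA+PKCi for wild-type, and 26.2 and 25.3 CPM in FBS and 26.4 and 28.5 CPM in atRA+PKCi for Rxra cKO. Both wild-type groups lay above all 4 Rxra cKO libraries, whose media lay close together without overlapping. Its change was -1.20 (SE 0.10, adjusted p = 1.19e-05) in wild-type and 0.09 (SE 0.10, adjusted p = 0.508) in Rxra cKO, and the interaction, -1.29 (SE 0.14, adjusted p = 0.000317), was the largest in size among the members. Acat2, the cytosolic thiolase that joins acetyl-CoA units, was at 197 and 175 CPM in FBS and 92.4 and 82.9 CPM in atRA+PKCi for wild-type, and 77.4 and 70.8 CPM in FBS and 74.1 and 81.5 CPM in atRA+PKCi for Rxra cKO. Wild-type FBS stood apart from the other 6 libraries, which lay within a narrow range. It changed by -1.09 (SE 0.09, adjusted p = 1.62e-05) in wild-type, with 0.07 (SE 0.09, adjusted p = 0.583) in Rxra cKO and an interaction of -1.16 (SE 0.13, adjusted p = 0.000393). Mvk, mevalonate kinase, was at 55.1 and 60.6 CPM in FBS and 34.4 and 33.3 CPM in atRA+PKCi for wild-type, and 35.2 and 38.7 CPM in FBS and 39.2 and 39.4 CPM in atRA+PKCi for Rxra cKO. Its wild-type FBS libraries lay above all others. The change was -0.77 (SE 0.08, adjusted p = 4.8e-05) in wild-type and 0.09 (SE 0.08, adjusted p = 0.4) in Rxra cKO, and the interaction was -0.86 (SE 0.11, adjusted p = 0.000763).

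Idi1 and Hmgcs1, which makes the substrate of the pathway's committed step, changed least in wild-type, at -0.46 and -0.38, and Hmgcs1 was not called in Rxra cKO, at -0.08 (SE 0.06, adjusted p = 0.373). The interaction of Hmgcs1, -0.30 (SE 0.09, adjusted p = 0.0398), was not called with a term for the mouse (adjusted p = 0.0561). Acat2, Fdps, Idi1 and Hmgcs1 shared 43.7%, 27.9%, 27.1% and 13.1% of their 31-base exonic words with other annotated genes, so how reads were divided between genes is uncertain for them.

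The squalene and sterol enzymes join 2 farnesyl units into squalene, close the ring and trim lanosterol to cholesterol. Of the 11, 10 fell in wild-type cultures, and their median change was -0.85. Hsd17b7, the 3-ketosteroid reductase of the demethylation complex, was at 130.4 and 119.8 CPM in FBS and 39.3 and 38.4 CPM in atRA+PKCi for wild-type, and 98.5 and 104 CPM in FBS and 69.6 and 67.7 CPM in atRA+PKCi for Rxra cKO. All 4 groups were separate, and wild-type atRA+PKCi was the lowest of them, below both Rxra cKO groups. Its log2 change was -1.69 (SE 0.07, adjusted p = 2e-07) in wild-type, the largest of any member in that contrast, and -0.56 (SE 0.07, adjusted p = 0.000245) in Rxra cKO, and the interaction was -1.12 (SE 0.10, adjusted p = 9.89e-05). Dhcr7, the reductase of the last step of one branch, was at 77.6 and 63.0 CPM in FBS and 27.8 and 25.5 CPM in atRA+PKCi for wild-type, and 36.2 and 37.1 CPM in FBS and 28.5 and 26.7 CPM in atRA+PKCi for Rxra cKO. Wild-type FBS was highest and the libraries in atRA+PKCi of the 2 genotypes overlapped. Its changes were -1.40 (SE 0.10, adjusted p = 7.27e-06) and -0.41 (SE 0.11, adjusted p = 0.013) in wild-type and Rxra cKO, and its interaction was -0.99 (SE 0.15, adjusted p = 0.0017). Ebp, the sterol isomerase, was at 55.5 and 54.5 CPM in FBS and 25.5 and 23.8 CPM in atRA+PKCi for wild-type, and 26.2 and 27.5 CPM in FBS and 21.8 and 20.9 CPM in atRA+PKCi for Rxra cKO. Again wild-type FBS stood alone, while wild-type atRA+PKCi and Rxra cKO FBS came near each other. The changes were -1.16 (SE 0.07, adjusted p = 2.27e-06) and -0.33 (SE 0.07, adjusted p = 0.00657), with an interaction of -0.83 (SE 0.10, adjusted p = 0.000653).

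Lss and Msmo1 fell in both genotypes by similar amounts. Lss, the cyclase that forms lanosterol, was at 88.6 and 80.7 CPM in FBS and 56.9 and 53.4 CPM in atRA+PKCi for wild-type, and 85.8 and 81.9 CPM in FBS and 50.1 and 49.2 CPM in atRA+PKCi for Rxra cKO. Its FBS libraries of the 2 genotypes overlapped and lay above all 4 libraries in atRA+PKCi. The changes were -0.62 (SE 0.07, adjusted p = 0.000115) in wild-type and -0.76 (SE 0.07, adjusted p = 5.87e-05) in Rxra cKO, and the interaction was 0.14 (SE 0.10, adjusted p = 0.376). Msmo1, the sterol C4 methyl oxidase, was at 398 and 439 CPM in FBS and 232 and 233 CPM in atRA+PKCi for wild-type, and 295 and 348 CPM in FBS and 186 and 180.0 CPM in atRA+PKCi for Rxra cKO. Each genotype was higher in FBS, and the groups did not overlap. It changed by -0.85 (SE 0.09, adjusted p = 7.46e-05) and -0.81 (SE 0.09, adjusted p = 0.00016), and the interaction was -0.04 (SE 0.13, adjusted p = 0.877).

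The other 6 genes of this group are given by range. Fdft1 (squalene synthase), Sqle (squalene epoxidase), Cyp51, Nsdhl (a sterol dehydrogenase) and Sc5d (a sterol desaturase) changed by -1.05 for Cyp51 to -0.35 for Sqle in wild-type, all called. In Rxra cKO, Cyp51, Nsdhl and Sc5d fell, by 0.45, 0.19 and 0.28, whereas Fdft1 and Sqle stood at -0.11 (SE 0.06, adjusted p = 0.209) and -0.16 (SE 0.07, adjusted p = 0.116). With a term for the mouse, Nsdhl in Rxra cKO was not called, at -0.19 (adjusted p = 0.0543). Tm7sf2 was the exception, with all 8 libraries between 3.98 and 6.33 CPM and changes of -0.29 (SE 0.14, adjusted p = 0.118) in wild-type and 0.38 (SE 0.14, adjusted p = 0.0562) in Rxra cKO. Its interaction, -0.67 (SE 0.20, adjusted p = 0.0402), was not called with a term for the mouse, at -0.67 (adjusted p = 0.0739). Fdft1 and Tm7sf2 shared 31.9% and 13.3% of their exonic words with other genes, most with Ctsb and Vps51 in turn, so their counts are uncertain.

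Among the regulators, the 2 SREBP genes differed. Srebf1 stood at 48.1 and 40.8 CPM in FBS and 71.3 and 65.5 CPM in atRA+PKCi for wild-type, and 24.9 and 27.9 CPM in FBS and 36.2 and 37.7 CPM in atRA+PKCi for Rxra cKO. Both atRA+PKCi groups lay above the FBS group of the same genotype, and both wild-type groups above all Rxra cKO libraries. It rose in wild-type by 0.62 (SE 0.10, adjusted p = 0.000676) and in Rxra cKO by 0.48 (SE 0.10, adjusted p = 0.00468), with an interaction of 0.14 (SE 0.14, adjusted p = 0.515). Srebf2 stood at 216 and 173 CPM in FBS and 165 and 157 CPM in atRA+PKCi for wild-type, and 98.7 and 112 CPM in FBS and 126 and 119 CPM in atRA+PKCi for Rxra cKO. Wild-type FBS and wild-type atRA+PKCi lay above the Rxra cKO libraries, and the first of the wild-type FBS libraries stood well above the second. Its changes were -0.28 (SE 0.11, adjusted p = 0.0611) in wild-type and 0.21 (SE 0.11, adjusted p = 0.157) in Rxra cKO, with an interaction of -0.49 (SE 0.16, adjusted p = 0.0513). With a term for the mouse the wild-type change was called, at -0.27 (adjusted p = 0.0449), and so was the interaction, at -0.48 (adjusted p = 0.0397). Without wild-type FBS replicate 2 they were called as well, at -0.43 (adjusted p = 0.00435) and -0.64 (adjusted p = 0.00521).

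Scap, the escort of the SREBP precursors, was at 105 and 91.5 CPM in FBS and 103 and 102 CPM in atRA+PKCi for wild-type, and 77.4 and 82.9 CPM in FBS and 83.0 and 86.4 CPM in atRA+PKCi for Rxra cKO. The media overlapped in wild-type and lay close together in Rxra cKO, and the changes were 0.06 (SE 0.08, adjusted p = 0.556) and 0.08 (SE 0.08, adjusted p = 0.461). Scap also shared 11.3% of its exonic words with other genes. Insig1, itself a sterol-regulated retention protein, was at 69.1 and 65.1 CPM in FBS and 46.5 and 45.9 CPM in atRA+PKCi for wild-type, and 39.6 and 45.7 CPM in FBS and 41.7 and 40.4 CPM in atRA+PKCi for Rxra cKO. Wild-type FBS was above the rest, and the Rxra cKO media overlapped. It changed by -0.54 (SE 0.08, adjusted p = 0.00055) in wild-type and -0.05 (SE 0.08, adjusted p = 0.628) in Rxra cKO, with an interaction of -0.48 (SE 0.12, adjusted p = 0.0165). Insig2, the retention protein that SREBP does not induce, was at 65.2 and 63.9 CPM in FBS and 50.6 and 51.6 CPM in atRA+PKCi for wild-type, and 47.1 and 49.1 CPM in FBS and 41.6 and 44.0 CPM in atRA+PKCi for Rxra cKO. Its groups were ordered like those of Insig1 over a smaller range. The changes were -0.34 (SE 0.06, adjusted p = 0.00221) and -0.17 (SE 0.07, adjusted p = 0.065). Stard4, a carrier of cholesterol between membranes, was at 158 and 141 CPM in FBS and 73.3 and 72.9 CPM in atRA+PKCi for wild-type, and 63.3 and 55.9 CPM in FBS and 45.4 and 46.0 CPM in atRA+PKCi for Rxra cKO. Wild-type FBS lay above all other libraries and Rxra cKO atRA+PKCi below them. It changed by -1.04 (SE 0.08, adjusted p = 1.06e-05) in wild-type and -0.38 (SE 0.08, adjusted p = 0.0061) in Rxra cKO, with an interaction of -0.65 (SE 0.12, adjusted p = 0.00428).

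The fatty acid enzymes did not move as a group in wild-type cultures, where Acly alone was called. Acly, the lyase that supplies cytosolic acetyl-CoA to both pathways, was at 438 and 344 CPM in FBS and 234 and 224 CPM in atRA+PKCi for wild-type, and 246 and 232 CPM in FBS and 286 and 282 CPM in atRA+PKCi for Rxra cKO. Wild-type FBS was highest, and wild-type atRA+PKCi and Rxra cKO FBS overlapped. It changed by -0.77 (SE 0.11, adjusted p = 0.000327) in wild-type and 0.25 (SE 0.11, adjusted p = 0.0904) in Rxra cKO, with an interaction of -1.02 (SE 0.15, adjusted p = 0.0016). Fasn, fatty acid synthase, was at 301 and 195 CPM in FBS and 215 and 213 CPM in atRA+PKCi for wild-type, and 237 and 221 CPM in FBS and 205 and 222 CPM in atRA+PKCi for Rxra cKO. One wild-type FBS library lay above all others and the other below all others. Its changes were -0.21 (SE 0.17, adjusted p = 0.316) in wild-type and -0.10 (SE 0.17, adjusted p = 0.664) in Rxra cKO, and without wild-type FBS replicate 2 the wild-type change was -0.49 (adjusted p = 0.00113) and the interaction -0.39 (adjusted p = 0.0258). Acaca, which makes malonyl-CoA, was at 91.7 and 72.0 CPM in FBS and 89.1 and 86.6 CPM in atRA+PKCi for wild-type, and 120.4 and 102 CPM in FBS and 119.8 and 123 CPM in atRA+PKCi for Rxra cKO. The media overlapped in both genotypes, and the changes were 0.10 (SE 0.12, adjusted p = 0.499) and 0.13 (SE 0.12, adjusted p = 0.403). Acaca also shared 33.5% of its exonic words with other genes.

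Both desaturases were much lower in Rxra cKO cultures and rose there with the medium. Scd1 was at 189.7 and 157 CPM in FBS and 209 and 199.8 CPM in atRA+PKCi for wild-type, and 61.7 and 59.4 CPM in FBS and 99.97 and 99.5 CPM in atRA+PKCi for Rxra cKO. Its Rxra cKO libraries in FBS were lowest and those in atRA+PKCi next, and the wild-type media did not overlap. It rose by 0.72 (SE 0.09, adjusted p = 0.000332) in Rxra cKO, with 0.24 (SE 0.09, adjusted p = 0.0516) in wild-type, a change that was called with a term for the mouse, at 0.24 (adjusted p = 0.0278), and the interaction was -0.48 (SE 0.13, adjusted p = 0.0259). Scd2 was at 789 and 642 CPM in FBS and 799 and 737 CPM in atRA+PKCi for wild-type, and 195 and 202 CPM in FBS and 377 and 366 CPM in atRA+PKCi for Rxra cKO. The order of its groups matched that of Scd1, except that the wild-type media overlapped. It rose by 0.91 (SE 0.10, adjusted p = 0.000158) in Rxra cKO, with 0.10 (SE 0.10, adjusted p = 0.427) in wild-type and an interaction of -0.80 (SE 0.14, adjusted p = 0.00419). Scd1 and Scd2 shared 8.18% and 6.81% of their exonic words with other genes, most with each other. Elovl6, which lengthens fatty acids, went the other way, with a change of -0.02 (SE 0.08, adjusted p = 0.857) in wild-type, -0.50 (SE 0.08, adjusted p = 0.000827) in Rxra cKO and an interaction of 0.48 (SE 0.11, adjusted p = 0.0118).

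The comparison of genotypes in FBS asked how the pathway differs in cells labelled Rxra cKO before the change of medium. It uses the same wild-type FBS libraries as the wild-type comparison of media, so the 2 sets of values are not independent. In FBS, 25 of 30 members were lower in Rxra cKO, where 20.5% of all genes were, and 2 were higher (Acaca and Elovl6), where 22.3% were, with a median log2 difference of -0.68 against 0.02 over all genes. All 7 early mevalonate enzymes, 9 of 11 squalene and sterol enzymes, all 6 regulators and 3 of 6 fatty acid enzymes were lower. The differences were largest for Mvd, at -1.88 (SE 0.10, adjusted p = 2.89e-06), Scd2, at -1.85 (SE 0.10, adjusted p = 4.09e-06), Scd1, at -1.52 (SE 0.09, adjusted p = 6.28e-06), Nsdhl, at -1.49 (SE 0.06, adjusted p = 1.04e-06), Stard4, at -1.33 (SE 0.08, adjusted p = 6.77e-06), and Acat2, at -1.33 (SE 0.09, adjusted p = 1.24e-05). Srebf2 and Srebf1 had log2 differences of -0.88 and -0.75, both called. The 3 not called were Lss, at -0.01 (SE 0.07, adjusted p = 0.904), Tm7sf2, at -0.09 (SE 0.14, adjusted p = 0.649), and Fasn, at -0.11 (SE 0.17, adjusted p = 0.623), which was at -0.39 (adjusted p = 0.00503) without wild-type FBS replicate 2. Acaca was higher by 0.44 (SE 0.12, adjusted p = 0.0163) and lost its call without that library, at 0.27 (adjusted p = 0.0623), and without Rxra cKO FBS replicate 1, at 0.30 (adjusted p = 0.122).

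In atRA+PKCi the genotypes were closer. There 17 of 30 members were lower in Rxra cKO, where 20.2% of all genes were, and 5 were higher, where 23% were, with a median of -0.27 against 0.00 over all genes. Sqle, Scd2 and Scd1 differed most, at -1.09 (SE 0.07, adjusted p = 7.91e-06), -1.05 (SE 0.10, adjusted p = 6.19e-05) and -1.03 (SE 0.09, adjusted p = 3.36e-05), followed by Srebf1, at -0.89 (SE 0.10, adjusted p = 0.000121), and Nsdhl, at -0.76 (SE 0.06, adjusted p = 2.55e-05). Srebf2 differed by -0.39 (SE 0.11, adjusted p = 0.019). The 5 that were higher in Rxra cKO were Hsd17b7, at 0.82 (SE 0.07, adjusted p = 2.82e-05), Tm7sf2, at 0.58 (SE 0.14, adjusted p = 0.00963), Acaca, at 0.47 (SE 0.12, adjusted p = 0.0115), Acly, at 0.31 (SE 0.11, adjusted p = 0.0425), and Sc5d, at 0.25 (SE 0.07, adjusted p = 0.0182). These counts were sensitive to single libraries: the number lower was 9 without replicate 1 of wild-type atRA+PKCi or of Rxra cKO atRA+PKCi and 11 without replicate 2 of the latter, and the number higher went down to 1 without Rxra cKO atRA+PKCi replicate 2. Without that library Hsd17b7 was still called, and Srebf2, at -0.35 (adjusted p = 0.125), and Sc5d, at 0.28 (adjusted p = 0.0592), were not.

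Summed over all 30 members, the libraries held 6106 and 5608 CPM in FBS and 4181 and 4042 CPM in atRA+PKCi for wild-type, and 3278 and 3367 CPM in FBS and 3131 and 3116 CPM in atRA+PKCi for Rxra cKO. The group means were 70.2%, 56.7% and 53.3% of the wild-type FBS mean for wild-type atRA+PKCi, Rxra cKO FBS and Rxra cKO atRA+PKCi. The early mevalonate enzymes summed to 1487 and 1500.5 CPM in FBS and 888 and 871 CPM in atRA+PKCi for wild-type, and 798 and 818 CPM in FBS and 695 and 694 CPM in atRA+PKCi for Rxra cKO, and the squalene and sterol enzymes to 2103 and 2079.7 CPM in FBS and 1196 and 1172 CPM in atRA+PKCi for wild-type, and 1209 and 1305 CPM in FBS and 935 and 915 CPM in atRA+PKCi for Rxra cKO. In both sets wild-type FBS was highest, wild-type atRA+PKCi and Rxra cKO FBS lay close together, and Rxra cKO atRA+PKCi was lowest. The regulators summed to 662 and 575 CPM in FBS and 509.6 and 494 CPM in atRA+PKCi for wild-type, and 351 and 374 CPM in FBS and 374 and 373 CPM in atRA+PKCi for Rxra cKO. The fatty acid enzymes summed to 1855 and 1452 CPM in FBS and 1588 and 1504 CPM in atRA+PKCi for wild-type, and 919.7 and 869.6 CPM in FBS and 1127 and 1134 CPM in atRA+PKCi for Rxra cKO, where Rxra cKO FBS was lowest. These sums are dominated by the most abundant genes and were not tested.

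**Figure D3:**
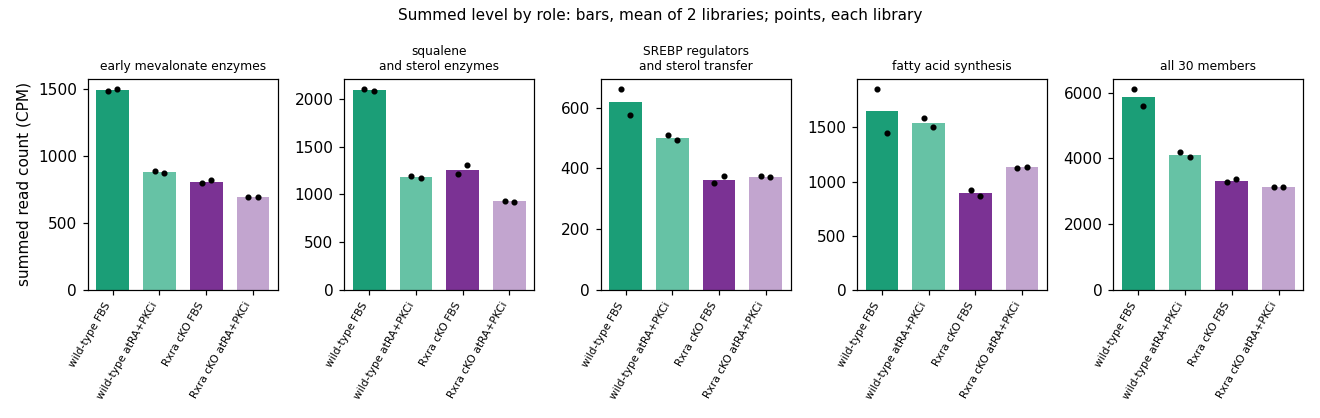
Summed CPM of the members by role and over all 30, with bars for the mean of 2 libraries and points for the libraries, in the 4 groups. For all 30 members the 2 wild-type FBS libraries, at 6106 and 5608 CPM, lie above every other library, and the Rxra cKO libraries lie between 3116 and 3367 CPM.

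Over the 5 bulk contrasts the members gave 107 calls, of which 80 were also made with DESeq2, with relative log expression factors, without the filter on low counts, with the mouse term where it could be fitted, and without each library in turn, while 27 were lost in at least 1 of these. The number lower in Rxra cKO on the change of medium, 13, was 8 without either Rxra cKO atRA+PKCi library, since Idi1, Nsdhl, Sc5d and Dhcr7 were no longer called, nor Stard4 without replicate 1 or Ebp without replicate 2. The number higher in wild-type, 1, was 4 without wild-type FBS replicate 1, as Acaca, Scd1 and Scd2 were then called at 0.28 (adjusted p = 0.0495), 0.38 (adjusted p = 0.00213) and 0.26 (adjusted p = 0.0323), and it was 2 with the mouse term. The call of Elovl6 in the interaction was lost without wild-type atRA+PKCi replicate 2, Rxra cKO FBS replicate 1 or Rxra cKO atRA+PKCi replicate 1, at 0.46 (adjusted p = 0.0518), 0.36 (adjusted p = 0.0524) and 0.42 (adjusted p = 0.0783).

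Genes around the pathway were read from lists of known function, also chosen with earlier results of these data known. They are set against the shares over all genes of 27.2% that rose and 26.6% that fell in wild-type and 20.8% and 22.2% in Rxra cKO. Of 10 genes for SREBP processing and turnover, 4 rose and 5 fell in wild-type cultures on the change of medium, with a median of -0.14: the site-1 protease Mbtps1 rose by 0.91 and the ubiquitin ligase Rnf145 by 0.64, while the COPII coat genes Sec23a and Sec24c fell by 0.81 and 0.66. The isoprenoid branch, which uses farnesyl diphosphate for protein prenylation, dolichol and ubiquinone, had 2 of 9 genes lower (Fntb at -0.63 and Nus1 at -0.36), and a median of -0.06, so that its share of falls was near that of all genes. Of 12 genes for sterol uptake, trafficking and esterification, 1 rose, the lysosomal lipase Lipa at 0.53, and 5 fell, led by the sterol acyltransferase Soat1 at -1.54 and the lipoprotein receptor Lrp1 at -0.93. In Rxra cKO cultures the 3 lists had 2 higher and 2 lower, 1 higher and 2 lower, and 2 higher and 2 lower.

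The LXR and efflux list split. Abca1, the cholesterol exporter, was at 4.31 and 2.97 CPM in FBS and 24.4 and 24.5 CPM in atRA+PKCi for wild-type, and 1.47 and 2.11 CPM in FBS and 7.67 and 5.51 CPM in atRA+PKCi for Rxra cKO. It was higher in atRA+PKCi in both genotypes and lower in Rxra cKO in both media, and it rose by 2.74 (SE 0.22, adjusted p = 1.25e-05) in wild-type and 1.88 (SE 0.24, adjusted p = 0.000352) in Rxra cKO. Mylip, a ubiquitin ligase for lipoprotein receptors and like Abca1 a known LXR target, rose by 1.58 (SE 0.10, adjusted p = 2.75e-06) and 1.57 (SE 0.11, adjusted p = 9.02e-06). Abcg1, also a known LXR target, was at 14.3 and 13.1 CPM in FBS and 0.1604 and 0.253 CPM in atRA+PKCi for wild-type, and 4.21 and 4.57 CPM in FBS and 0.393 and 0.633 CPM in atRA+PKCi for Rxra cKO. It was high only in FBS and changed by -6.02 (SE 0.28, adjusted p = 3.45e-07) and -3.13 (SE 0.25, adjusted p = 1.94e-05). The lipid transporter Abca12, which acts in cornifying keratinocytes, also fell, with changes of -4.36 for wild-type and -1.75 for Rxra cKO. In all, 2 of 7 rose and 4 fell in wild-type, where 27.2% and 26.6% of all genes did, and 2 rose and 3 fell in Rxra cKO, where 20.8% and 22.2% did. Of 22 other genes of fatty acid and triglyceride synthesis, 1 rose and 15 fell in wild-type, against the same shares, led by Elovl4 at -4.94, Dgat2 at -3.55, Elovl7 at -2.46 and Me1 at -1.83, and 4 rose and 11 fell in Rxra cKO. Of 11 genes of fatty acid oxidation, 6 rose and 2 fell in wild-type, led by Ehhadh at 2.17 and Cpt1a, which admits fatty acids to mitochondria, at 1.94, and 6 rose and 1 fell in Rxra cKO.

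Markers of other cell states moved with the same contrasts. Summed suprabasal epidermal markers, genes of differentiating keratinocytes, stood at 4159 and 4519.9 CPM in FBS and 389 and 412 CPM in atRA+PKCi for wild-type, and 2408 and 2981 CPM in FBS and 1348 and 1271 CPM in atRA+PKCi for Rxra cKO, and 8 of the 9 fell in wild-type on the change of medium, with Krtdap, Dsg1a, Lor and Krt1 among them, while 2 rose and 5 fell in Rxra cKO. Their order over the 4 groups, with wild-type FBS highest, differed from that of the sterol genes in that wild-type atRA+PKCi was lowest. Basal keratinocyte markers summed to 38140.3 and 38458 CPM in FBS and 17968 and 18042 CPM in atRA+PKCi for wild-type, and 23881 and 25886 CPM in FBS and 26149 and 26051 CPM in atRA+PKCi for Rxra cKO, and all 6 fell in wild-type, Krt14 furthest at -1.87. Of 9 sebocyte markers 5 passed the filter and summed to 182 and 181 CPM in FBS and 146 and 132 CPM in atRA+PKCi for wild-type, and 254 and 256 CPM in FBS and 213 and 214 CPM in atRA+PKCi for Rxra cKO, with 3 higher and 2 lower in wild-type, and the sebocyte wax enzymes Awat1 and Awat2 did not pass. Fibroblast markers, which feeder cells could contribute, passed the filter for 6 of 9 and summed to between 1.64 and 12.2 CPM in every library. The part of these markers in the results was not tested.

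Cultured HFSCs of 2 wild-type mice were also measured as single cells, with hashtags marking 7 culture conditions: FBS, B-27, atRA+PKCi, and atRA+PKCi with R-spondin (Rspo), with BMP2/4, with both, or with both and an inhibitor of retinoic acid receptors (RARi). The matrices held 449 and 208 barcodes and shared 0, and 222 and 78 cells with 1 hashtag passed the filters of 500 genes, 1000 UMIs and under 10% mitochondrial UMIs. No cell of the FBS condition remained, and atRA+PKCi alone kept 2 and 1 cells, so the bulk comparison of media could not be repeated. UMI counts were summed by mouse and condition and tested by edgeR's quasi-likelihood test over 6265 genes in conditions with at least 5 cells in each mouse. Of the 30 members, 26 were tested, and Srebf1, Insig1, Stard4 and Tm7sf2 did not pass the filter.

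BMP2/4 cultures differ from B-27 cultures by atRA, PKCi and BMP2/4 together. BMP2/4 cultures (113 and 13 cells) were set against B-27 cultures (5 and 10 cells). Of 26 members, 1 was higher, Scd1, where 1.53% of all genes were, and 0 were lower, where 8.83% were. DESeq2 called 0. In the edgeR test 6 members had an unadjusted p under 0.05. The share of all genes under that limit was not computed, so nothing is read from the 6. Scd1 stood at 5.29 and 22.8 CPM in B-27, from 1 and 5 UMIs, and at 66.8 and 50.9 CPM in BMP2/4. It was higher in BMP2/4 in both mice, by 2.15 (SE 0.65, adjusted p = 0.0386), and the call was lost without either B-27 sum, at 1.46 (adjusted p = 0.445) and 3.75 (adjusted p = 0.0567), and without either BMP2/4 sum, at 1.83 (adjusted p = 0.312) and 2.42 (adjusted p = 0.0684). The median over the members was -0.49, against 0.01 over all genes, and 18 of 26 were below 0. Dhcr7, Srebf2 and Acly, at -2.30 (SE 0.84, adjusted p = 0.0898), -1.29 (SE 0.48, adjusted p = 0.0933) and -1.23 (SE 0.41, adjusted p = 0.0594), did not pass. All 30 members summed to 2217 and 2836 CPM in B-27 and 1797 and 1574 CPM in BMP2/4. Suprabasal markers summed to 7192 and 4875 CPM and 529 and 493 CPM in the same cultures, and their part in these values was not tested.

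Adding Rspo to BMP2/4 (92 and 27 cells) gave 0 of 26 members higher, where 0% of all genes were, and 0 lower, where 0% were, by edgeR and also by DESeq2, with 0 members at an unadjusted p under 0.05 and log2 differences from -0.35 to 1.17. Adding the RAR inhibitor to both (5 and 21 cells) also gave 0 higher, where 0% of all genes were, and 0 lower, where 0% were, by both tools, with 0 at an unadjusted p under 0.05 and differences from -0.72 to 1.099. Without RARi replicate 2, Scap, Acaca and Fdps were called at 2.30 (adjusted p = 0.0406), 1.44 (adjusted p = 0.0465) and -2.53 (adjusted p = 0.049), but that condition was then 1 sum of 5 cells, assumed to vary like the other conditions. The summed members stood at 1871 and 2224 CPM with Rspo+BMP2/4 and 2944 and 2139 CPM with the inhibitor, which overlapped each other. Both lay above BMP2/4 alone, at 1797 and 1574 CPM, a difference that was not tested on the sums.

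**Figure D4:**
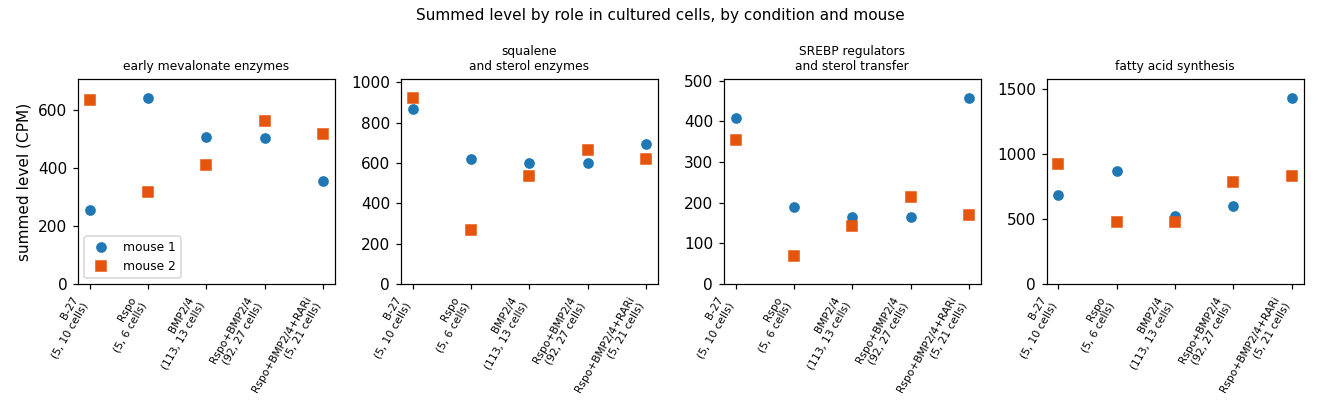
Summed CPM of the members by role in cultured wild-type HFSCs, 1 point for each of 2 mice, with the number of cells beside it. Only culture conditions with at least 5 cells in each mouse are drawn. For squalene and sterol enzymes the BMP2/4 points, at 602 and 538 CPM, lie below both B-27 points, at 868 and 924 CPM. For early mevalonate enzymes the BMP2/4 points, at 506 and 411 CPM, lie between the B-27 points, at 254 and 633 CPM.

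Levels in skin were read from single cells of 2 wild-type mice in anagen VI, the late growth phase of the hair cycle, at postnatal day 32. After filters and removal of predicted doublets 13625 and 13608 cells remained, with median UMIs of 8671 and 10464, and the matrices shared 62 barcodes, 0.375% and 0.386% of their own. Clustering, run without the 30 members, gave 30 clusters, of which 16 took a name from marker genes, as 11 classes, and 14 did not and are called here by their leading gene. By the study's methods these cells were sorted to leave out immune, endothelial, fibroblast and melanocyte surface markers, yet classes with those markers were present. No cluster was sebocyte-like. One fibroblast-like cluster held 2936 cells of mouse 1 and 46 of mouse 2, and another 151 and 2067. Levels are CPM of UMIs summed by class and mouse in the 23 classes with at least 50 cells in each mouse, given as a description with no test.

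The summed members were highest in an unnamed cluster led by Csta1, whose other leading genes included Krtap15, Foxq1 and Tchh, at 3133 and 3661 CPM in the 2 mice. Inner root sheath-like cells followed at 2912 and 3055 CPM and melanocyte-like cells at 3012 and 2644 CPM, and the latter pair overlapped. The inner root sheath-like class pooled a cluster with 4 of its markers among its 10 leading genes, at 2860 and 3014 CPM, with one led by Cdh6 that had none there, at 3301 and 3113 CPM, so that taken singly the Cdh6-led cluster was highest in mouse 1. Outer root sheath-like cells were at 1499 and 1466 CPM, from a cluster led by Scrg1 at 1210 and 1289 CPM and one led by Krt6a at 2309 and 2146 CPM, fibroblast-like cells at 1167 and 856 CPM, and a cluster led by the hemoglobin gene Hbb-bt was lowest at 602 and 486 CPM. The early mevalonate enzymes alone stood at 1126 and 1219 CPM in the Csta1-led cluster, 1123 and 957 CPM in inner root sheath-like cells (1182 and 1211 CPM without the Cdh6-led cluster, which was at 680 and 588 CPM) and 307 and 278 CPM in outer root sheath-like cells. The summed regulators were highest in outer root sheath-like cells, at 503 and 509 CPM, of which Insig2 alone made up 354 and 358 CPM.

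For 19 of the 30 members the same class was highest in both mice. In the Csta1-led cluster these were Acat2, Hmgcs1, Mvd, Lss, Cyp51, Msmo1 and Srebf2. Hmgcs1 stood there at 398 and 461 CPM, and overlapped the next class, led by Cst6, at 377 and 425 CPM. Srebf2 stood there at 148 and 192 CPM, above the next class, led by Krt35, at 114 and 125 CPM. Melanocyte-like cells, 95 and 80 in number, were highest for Tm7sf2, Nsdhl, Hsd17b7, Dhcr7 and Insig1. Hsd17b7 stood there at 55.3 and 43.9 CPM, from 48 and 47 UMIs, against 36.7 and 42.3 CPM in the Csta1-led cluster. Its lead in mouse 2 was therefore small. Insig1 in melanocyte-like cells stood at 142 and 87.7 CPM, from 123 and 94 UMIs, and Tm7sf2 rested on 21 and 15 UMIs. Inner root sheath-like cells were highest for Mvk, Fasn and Acly, with Fasn at 52.0 and 58.1 CPM. Insig2 stood apart from its relative Insig1: it was highest in outer root sheath-like cells, at 354 and 358 CPM against 282 and 279 CPM in the next class, led by Grm7. Srebf1 was highest in a cluster led by Csn1s1, a milk protein gene, at 50.8 and 69.3 CPM, from 32 and 42 UMIs. Scap was highest in the Cst6-led cluster, at 45.1 and 51.2 CPM, and Acaca in the Krt35-led cluster (Krt35 is a hair shaft keratin), at 201 and 309.7 CPM. The Cst6-led cluster held the suprabasal marker Krt1 and the upper hair follicle markers Krt79 and Defb6 among its 10 leading genes. The other 11 members, among them Idi1, Fdps, Sqle, Scd1 and Scd2, had different highest classes in the 2 mice. For 15 of 30 the 2 highest classes overlapped. Shares over all genes were not computed for these counts of 19, 11 and 15. They describe the members and show no trait particular to them.

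**Figure D5:**
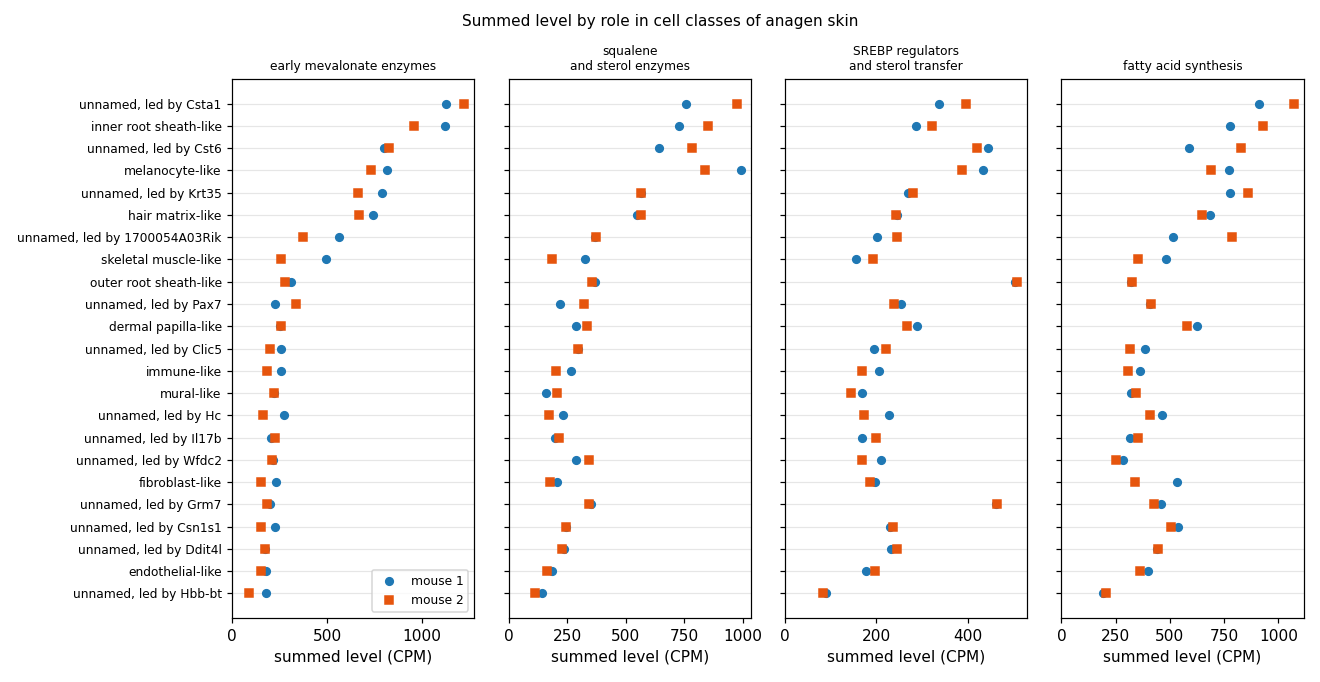
Summed CPM of the members by role in each cell class of anagen skin, 1 point for each of 2 mice, with classes ordered by the early mevalonate sum. For early mevalonate enzymes, outer root sheath-like cells lie below the Csta1-led cluster and inner root sheath-like cells in both mice. For the regulators, outer root sheath-like cells are highest.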

How the data were processed

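Gene members and lists were chosen with earlier results of these data known. The authors deposited estimated counts per gene for 8 bulk libraries, made with Salmon 1.4.0 and tximport on mm10, and UMI counts of single cells made with Cell Ranger 7.0.1 per the labels. The deposited counts are unnormalized, and the authors' ambient RNA and doublet steps are not in them. A table of the authors' normalized values was not used.

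Bulk counts were rounded, filtered with filterByExpr, scaled by trimmed mean of M values and fitted with 1 mean per group by edgeR 4.0.16 (R 4.3.3) quasi-likelihood tests with Benjamini-Hochberg adjustment over 15965 genes. Same-numbered cultures of a genotype come from 1 mouse by the labels, and deviations of same-numbered libraries correlated at 0.0668 (wild-type) and -0.0188 (Rxra cKO) over 15965 genes. With 2 mice per genotype, p-values measure the spread between these cultures. Per-kilobase levels used the exonic bases of GRCm38 joined over all annotated transcripts of a gene, and 31-base words of exons were compared between genes. Hashtags were called with HTODemux (Seurat 5.3.0, quantile 0.99), which marked 77 and 33 barcodes as doublets. Single cells were clustered with scanpy 1.11.5 (3000 variable genes, 30 components, Leiden resolution 0.5, seed 11, Scrublet, which removed 833 and 307 cells). A cluster could be named where its fixed markers scored 1 or more and 3 were detected, by a scoring rule set after the data were seen. With no marker among its 10 leading genes it needed a score of 1.5 and every marker detected, which left 3 clusters unnamed and named 5 of the 16 named ones. Clusters also stayed unnamed where another marker list led, as for those led by Hc and Cst6. The Cd79a-led cluster stayed unnamed for low UMIs. Values in every library were given for the 6 members with the largest called changes of medium in each genotype, the 6 with the largest called interactions, the regulators, and Fasn, Acaca, Scd1 and Scd2, and at most 4 called genes of each other list were named. Srebf2, Dhcr7 and Acly in the cultured cells were named after their values were seen. Alternatives were DESeq2 1.42.0, relative log expression factors, no filter, a stricter threshold, a mouse term, single libraries left out, other cell and hashtag filters and other clusterings. The fits were tested on simulated data. ATAC-seq and CUT&RUN samples of the series were not analysed here.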

Additional observations from a re-analysis of the deposited data

Results flagged for a closer look

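The change from FBS to atRA+PKCi medium differed between the genotypes in 20 members by the interaction test, and each is given here as the log2 change in wild-type minus that in Rxra cKO. It was below 0 for Mvd (-1.29), Acat2 (-1.16), Hsd17b7 (-1.12), Acly (-1.02), Dhcr7 (-0.99), Mvk (-0.86), Ebp (-0.83), Fdps (-0.83), Scd2 (-0.80), Nsdhl (-0.73), Tm7sf2 (-0.67), Stard4 (-0.65), Pmvk (-0.61), Cyp51 (-0.60), Fdft1 (-0.59), Sc5d (-0.54), Insig1 (-0.48), Scd1 (-0.48) and Hmgcs1 (-0.30). It was above 0 for Elovl6 (0.48). Groups of 2 libraries are too small for the test of single outlying samples, so none was run.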

How the results depend on the processing

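No called member reversed its direction under any alternative. Among values not called in either fit, 31 of the bulk comparisons took the other sign, 26 of them without 1 library: Fasn, for example, was 0.13 in place of -0.21 for the medium in wild-type and 0.23 in place of -0.11 for genotype in FBS without wild-type FBS replicate 1. In cultured cells 68 did. A group left with 1 library is assumed to vary like the others. At an adjusted p under 0.01 with an absolute log2 change over 1, the members higher and lower were 0 and 9 for the medium in wild-type, 0 and 0 for the medium in Rxra cKO, 0 and 11 for genotype in FBS, 0 and 3 for genotype in atRA+PKCi, 0 and 4 for the interaction, and 0 and 0 for BMP2/4 against B-27. Shares over all genes were not computed at this threshold, so these counts show only which calls of members remain. Without a filter on low counts 2 members were higher in wild-type on the change of medium, and with the replicate block (a term for each mouse) also 2. Beyond the calls of Srebf2, Scd1, Nsdhl, Hmgcs1 and Tm7sf2 given above, the block changed no other call. The genotype contrasts could not be fitted with it. Leaving out 1 library at a time gave these ranges for members higher and lower: 1 to 4 and 21 to 23 for the medium in wild-type, 3 to 4 and 8 to 14 in Rxra cKO, 1 to 2 and 23 to 26 for genotype in FBS, 1 to 6 and 9 to 17 in atRA+PKCi, and 0 to 1 and 14 to 20 for the interaction. For genotype in FBS the count higher was 1 without wild-type FBS replicate 2 or Rxra cKO FBS replicate 1.

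In cultured cells, BMP2/4 against B-27 gave 0 higher with DESeq2, 2 lower at under 20% mitochondrial UMIs, 3 lower with hashtags called by 70% of at least 20 counts, and 0 to 1 higher and 0 to 3 lower without 1 sum at a time. The RARi contrast gave 0 to 2 higher and 0 to 1 lower in the same way. In skin, 19 members had 1 highest class in both mice, against 9 with 1000 or more genes and under 5% mitochondrial UMIs, 15 at resolution 1.0, 17 with doublets kept, and 17 and 16 with each mouse clustered alone. The cause of these shifts was not tested. Another scaling moved the median of all genes by less than 0.1 on the log2 scale.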
